A study of Mus musculus with 16 samples.

Results

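Gapdh, its processed pseudogene Gm13394 and the chromosome 6 gene Pianp were examined in RNA sequencing counts from mouse neutrophils. The 3 genes were chosen by symbol for their counts per library, their co-variation and the sum of Gapdh and Gm13394. They are 3 of the 49585 genes in the deposited tables, and because these same values chose them, their levels are given as a description: no p-value of theirs is printed, and whether they passed a threshold is stated only beside the share of all genes that did, with nothing read from it. Libraries came from the bones of C57BL/6 mice aged 8 to 12 weeks, and the cells were described as neutrophils sorted by flow cytometry. P2KO was labelled Vav:cre-PHD2f/f, a deletion of the oxygen sensor PHD2 (Egln1) by a recombinase active in blood-forming cells, and P2H2KO was labelled Vav:cre-PHD2/HIF2ff/ff, a deletion of PHD2 together with HIF2 (the series title names HIF2α, encoded by Epas1). Each had its own controls labelled wild type, P2WT and P2H2WT, so the lines differ in their controls as well as in their deletions, and the labels give neither a substrain nor a Cre status for the controls. Each of the 4 groups held 4 libraries, and the titles end in m or f. The labels do not say that each library is a separate mouse, so the spread given here is that between libraries.

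GAPDH, glyceraldehyde-3-phosphate dehydrogenase, catalyses the step of glycolysis that makes NADH, between triose phosphate isomerase (Tpi1) and phosphoglycerate kinase (Pgk1). Neutrophils depend heavily on glycolysis, and glycolysis genes are classical targets of the hypoxia-inducible factors, which PHD2 marks for degradation. Gapdh is also widely used as a reference gene to which other transcripts are scaled. Mammalian genomes hold many processed pseudogenes of it, copies made by reverse transcription of the spliced mRNA, and short reads can match gene and copies alike. Pianp encodes a membrane protein that binds the inhibitory receptor PILRα of myeloid cells and is known mostly from the nervous system.

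The sequences of gene and pseudogene show how little sets them apart. They are given here because a read inside the pseudogene can be told from Gapdh only by the base that differs. In GRCm38, Gapdh (ENSMUSG00000057666) lies on chromosome 6 from 125161715 to 125166467, minus strand, and its main transcript has 7 exons and 1272 bases, of which 1002 are coding with the stop codon. Gm13394 (ENSMUSG00000083773) is annotated as a processed pseudogene on chromosome 2 from 28933610 to 28934609, minus strand. Over its 1000 bases it equals the Gapdh coding sequence at 999. The 1 difference is A346C, counted from 1 at the first base of the coding sequence, with the base of Gapdh first, and it lies in exon 4 at chromosome 6 position 125163016. It changes codon 116 from AGG to CGG, which leaves the amino acid the same. The stretches below hold it, 5′ to 3′ on the minus strand of GRCm38 as in GENCODE M21 transcripts, with the differing base in capitals, at chr6:125162936-125163036 for Gapdh and chr2:28934184-28934284 for Gm13394.
Gapdh: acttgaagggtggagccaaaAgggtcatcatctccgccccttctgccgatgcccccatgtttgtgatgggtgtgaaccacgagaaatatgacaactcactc
Gm13394: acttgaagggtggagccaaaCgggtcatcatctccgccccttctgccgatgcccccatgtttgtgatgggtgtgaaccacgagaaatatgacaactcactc

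A read of the Gapdh transcript can tell the pair apart only where it covers that base or the 272 transcript bases outside the pseudogene. How reads that match both were counted is not given in the sources used here. Of all 100-base windows of the Gapdh transcript, 8.53% hold the differing base and 68.3% also occur letter for letter in Gm13394. For 50-base windows these shares were 4.09% and 73.7%, and for 150-base windows 13.4% and 62.4%. The read length is not given in the sources used here. Among 160 annotated genes whose transcript matched Gapdh at 90% identity or more over at least 300 bases, the aligned base at the differing position was A in 147 and C in 2, Gm13394 and Gm5732, with a gap in 2 and no alignment there in 9. Gm5732 was 92.0% identical to Gapdh and held 1 to 7 counts per library.

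Libraries held between 23450746 and 28601284 counts, with 19611 to 20439 genes detected. Replicates of a group correlated at r from 0.977 to 0.993 over genes in 24 pairs, and none differed by as little as sampling noise. Egln1 ranged from 43.2 to 58.8 CPM (the usual depth-scaled unit, here with TMM-scaled library sizes) and Epas1 from 2.55 to 24.4 CPM, and neither group mean was lower where the labels say the gene was deleted. Counts summed over a gene do not check the removal of single exons, so group names here stand for the labels. The 11 neutrophil markers, all detected, took 3.09 to 8.08% of CPM, led by S100a9 and Ngp. The 8 erythroid markers took 2.39 to 4.92%, and lists of early granule, B cell, T and NK cell, and monocyte and macrophage markers each took at most 0.378%. Across the 16 libraries the summed neutrophil markers correlated with Gapdh at r = 0.627 and the erythroid markers at r = -0.567, as a description. Their part in the Gapdh values was not tested. In bulk libraries, more cells of a type and more RNA per cell cannot be told apart.

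Gm13394 held many counts in some libraries and almost none in others. In the 8 libraries of the P2 line it held 0 to 4 counts. In P2H2WT it held 3432, 1323, 1791 and 3716 counts in libraries 13, 14, 16 and 18. In P2H2KO it held 0, 1992, 2882 and 4 counts in libraries 11, 12, 15 and 17. All 4 P2H2WT libraries and 2 of the 4 P2H2KO libraries therefore held many Gm13394 counts, and both other P2H2KO libraries had counts as in the P2 line. These are reads assigned to the annotated gene, and whether the chromosome 2 copy is transcribed was not tested. On the CPM scale the 6 libraries with counts ranged from 52.7 to 150.1.

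As a share of Gapdh and Gm13394 counts together, which does not depend on library scaling, Gm13394 fell into 3 separate levels in the P2H2 line. Libraries 13 and 18 of P2H2WT were at 26.6% (95% exact Clopper-Pearson interval 25.9 to 27.4) and 27.5% (26.8 to 28.3). Libraries 14 and 16 of P2H2WT were at 13.5% (12.8 to 14.2) and 13.98% (13.4 to 14.6). Libraries 12 and 15 of P2H2KO lay with the latter, at 14.57% (13.98 to 15.17) and 14.56% (14.07 to 15.06). Library 11 of P2H2KO had 0 of 12045 counts, which allows a share of up to 0.0249% by the limit of 3 counts (0.0306% by the exact interval), and library 17 had a share of 0.0269%. In the P2 line no share was above 0.0410%. Intervals and limits cover counting error only, since reads were not tagged as molecules as far as the labels say. The intervals of the middle level overlap each other, as do those of the upper level, and neither meets the other. Genotype and level were partly aligned in this line, with a mean share of 20.4% in P2H2WT and 7.29% in P2H2KO. The middle level held 2 control and 2 P2H2KO libraries, whereas the upper one held controls only and the lowest one P2H2KO only.

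**Figure D1:**
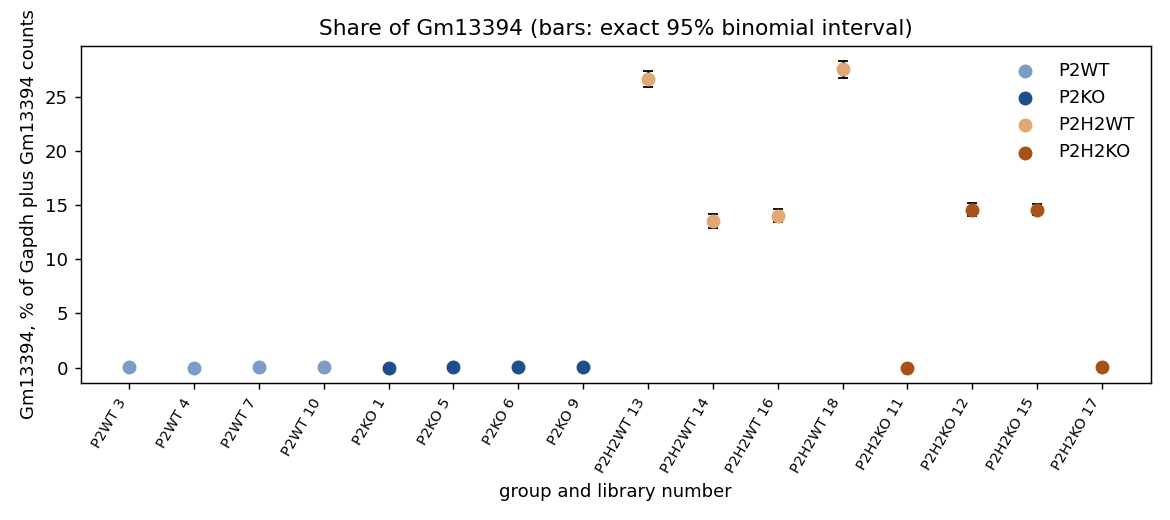
Share of Gm13394 in the summed counts of Gapdh and Gm13394 (percent, y axis) for each library (x axis, group and library number), coloured by group, with exact 95% binomial intervals as bars. P2H2 libraries sit near 0, near 14% or near 27%, and all P2 libraries sit at or under 0.0410%.

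Pianp (ENSMUSG00000030329, chromosome 6 from 124996694 to 125003096, plus strand, ending 158619 bases from the nearer end of Gapdh) split the same libraries. It held 1 to 9 counts in the 8 libraries of the P2 line. In P2H2WT it held 192, 94, 74 and 241 counts in libraries 13, 14, 16 and 18, and in P2H2KO 12, 118, 109 and 6 counts in libraries 11, 12, 15 and 17. The 2 libraries with the largest Gm13394 share also had the most Pianp, and the 4 at the middle share lay between 74 and 118 counts. The 2 P2H2KO libraries with almost no Gm13394 counts had 12 and 6. Over the 6 P2H2 libraries that held Gm13394, log2 CPM of the pair correlated at Pearson r = 0.827 and Spearman rho = 0.886, and at r = 0.804 without the 2 libraries farthest from the median. By share these libraries form 2 levels, so the r may partly describe the step between them. Their Gm13394 CPM was spread from 52.7 to 150.1 without a clear gap. Neuronal markers were near 0 throughout: Snap25 and Syt1 held no count in any library, and the 5 neural markers summed to 0.692 to 1.87 CPM. Pianp lay between 2.86 and 9.74 CPM in the 6 libraries that held Gm13394, and its highest level elsewhere was 0.519 CPM.

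The level of Gapdh differed according to whether the counts of the pseudogene were added. Gapdh alone held 9754, 8853, 9839 and 12336 counts in P2WT and 13204, 12053, 15664 and 10397 in P2KO. It held 9458, 8470, 11018 and 9797 counts in P2H2WT and 12045, 11680, 16914 and 14879 in P2H2KO, in the order of library numbers. In CPM this gave 389.5 ± 39.0 in P2WT, 480.1 ± 99.98 in P2KO, 374.5 ± 44.0 in P2H2WT and 567.6 ± 89.2 in P2H2KO (mean ± SD, n = 4 each). P2KO overlapped its controls, with library 9 at 399.2 CPM below the highest P2WT library at 444.7 CPM. P2H2KO did not overlap its controls: its lowest library had 470.7 CPM and the highest P2H2WT library 426.4 CPM, a separation with P2H2KO higher that 0.901% of all 13435 genes tested also had. With Gm13394 added, P2H2WT had 473.3 ± 65.4 CPM and P2H2KO 613.6 ± 91.8 CPM, and these groups then overlapped, since P2H2KO library 11 (521.2 CPM) lay below P2H2WT library 18 (545.9 CPM). In the P2 line the sum exceeded Gapdh alone by at most 0.158 CPM in any library.

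**Figure D2:**
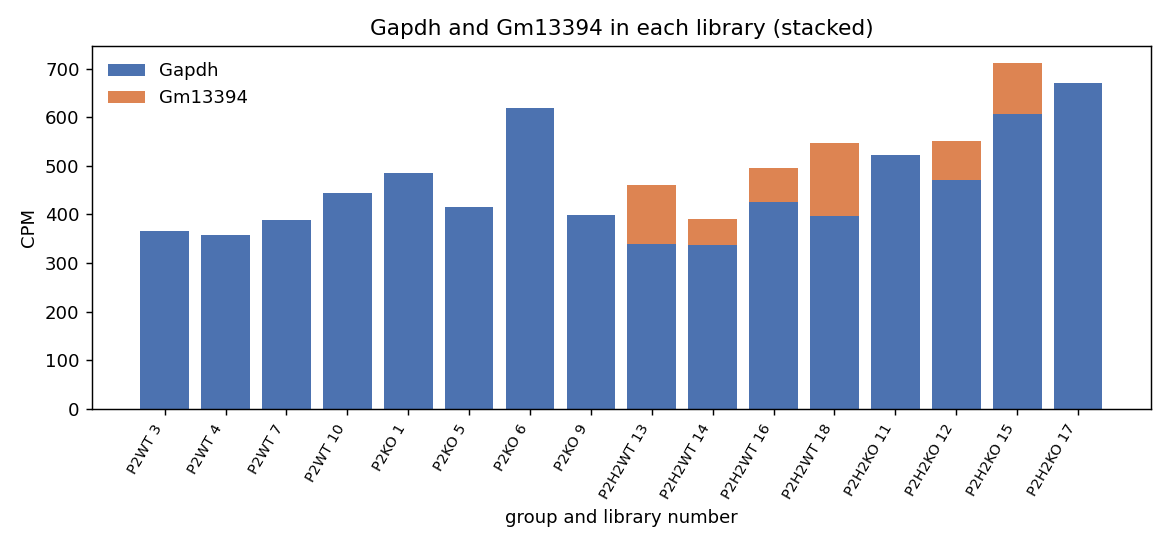
Gapdh (blue) and Gm13394 (orange) in CPM (y axis, stacked bars from 0) for each library (x axis). The orange part is visible in the 4 P2H2WT libraries and in libraries 12 and 15 of P2H2KO.

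The ratio of group means in the P2H2 line was 1.52 for Gapdh alone and 1.30 for the sum, while that of the P2 line was 1.23 either way. On the log2 scale of the edgeR fits, Gapdh differed by 0.60 (SE 0.13) between P2H2KO and P2H2WT and the sum by 0.37 (SE 0.13), against 0.31 (SE 0.15) for both in the P2 line. The contrast of the lines' effects, P2 minus P2H2, was -0.30 (SE 0.20) for Gapdh and -0.07 (SE 0.21) for the sum. The lines' estimates thus lay closer together once Gm13394 was counted, and neither contrast was called. Between the controls, P2WT minus P2H2WT, Gapdh differed by 0.06 (SE 0.14) and the sum by -0.28 (SE 0.15). With libraries 11 and 17 of P2H2KO both left out, the P2H2 difference was 0.52 (SE 0.15) for Gapdh and 0.41 (SE 0.16) for the sum.

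**Figure D3:**
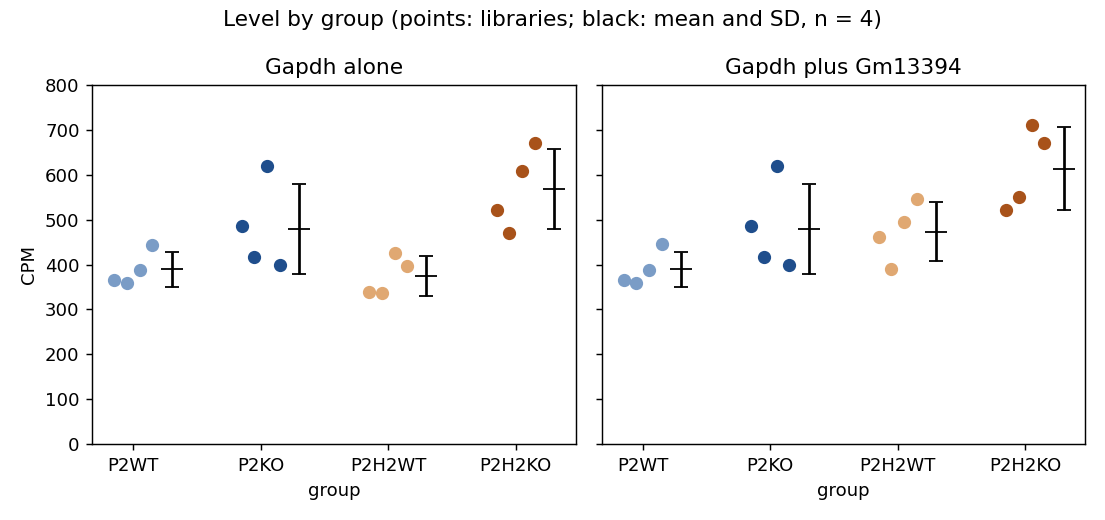
CPM (y axis, from 0) by group (x axis) for Gapdh alone (left) and Gapdh plus Gm13394 (right), with points for libraries and a black mean and SD (n = 4). Left, P2H2KO lies wholly above P2H2WT; right, these 2 groups overlap.

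For reference, the share of all genes tested that passed each rule was small. Between P2KO and P2WT, edgeR's quasi-likelihood test with Benjamini-Hochberg adjustment called 6 of 13734 genes (0.0437%). Only Gapdh of the 3 genes passed the filter on low counts there, and 0 were called, 0 at an unadjusted p under 0.05 (3.49% of all genes) and 0 by DESeq2 (0.168%). Between P2H2KO and P2H2WT, 10 of 13435 genes were called (0.0744%). All 3 passed the filter there and 0 were called, while Gapdh passed at an unadjusted p under 0.05 (2.63%) and by DESeq2 (0.313%), and the sum passed at an unadjusted p but not by DESeq2. For the contrast of the lines' effects 0 of the 3 were called, with 0 of 14080 genes called by edgeR (0%) and 0 by DESeq2, and 0 of the 3 against 212 genes (1.51%) at an unadjusted p under 0.05. Between P2WT and P2H2WT, Gm13394 and Pianp were called by edgeR, against 32 of 14080 genes (0.227%), by DESeq2 (2.07%) and at an unadjusted p under 0.05 (10% of genes), and were among the 2.59% of genes whose P2WT libraries all lay below P2H2WT. Here line, table and any difference in mice or handling cannot be told apart. Since these contrasts chose the 3 genes, nothing further is read from these counts.

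Between P2WT and P2H2WT, Pianp summed to 17 and 601 counts, a ratio of mean CPM of 36.1, and Gm13394 to 12 and 10262 counts. Within the P2H2 line the fitted log2 differences were -1.10 (SE 1.3) for Gm13394 and -1.27 (SE 0.74) for Pianp. Without libraries 11 and 17 they were -0.11 (SE 0.40) and -0.42 (SE 0.48), so their size came mostly from those 2 libraries. In the P2 line both genes failed the filter on low counts, with 0 to 4 counts of Gm13394 and 1 to 9 of Pianp per library, and no fold is given.

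Gapdh varied together with many other genes of glycolysis, though not with all. The 5 genes whose log2 CPM was most like that of Gapdh over the 16 libraries were Eno1 (enolase, r = 0.953), Ldha (lactate dehydrogenase, r = 0.948), Aldoa (aldolase, r = 0.947), the long noncoding RNA Dubr (r = 0.937) and Zfp654 (r = 0.933). With group means removed all 5 stayed at 0.832 or above, so the likeness was also present among libraries of the same group. For the sum, the first gene was Pgk1, the next enzyme of the pathway, at r = 0.981 (0.986 with group means removed), followed by Aldoa (r = 0.971), Pgm1 (phosphoglucomutase, r = 0.961), Pkm (pyruvate kinase, r = 0.960) and Prelid1 (r = 0.957). Pgk1 correlated at r = 0.924 with Gapdh alone. Of 21 glycolysis genes, 12 were closer to the sum than to Gapdh alone over the 16 libraries, and the medians were 0.828 and 0.778, so the list as a whole did not side clearly with either. Some genes of the list went the other way. With Gapdh alone, Hk1, Pfkm and Slc16a1 were at r = -0.285, -0.432 and -0.532, and Eno3 was at 0.101. These were named after their values were seen. The libraries share groups and depth, and the correlations are a description.

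Gapdh was also set against Aldoa, chosen because it was among the genes most like both Gapdh and the sum, and against the mean log2 CPM of the 21 glycolysis genes. Per 100 Aldoa counts, Gapdh alone had 65.6 ± 0.645 counts in P2WT, 60.5 ± 1.52 in P2KO, 55.6 ± 4.24 in P2H2WT and 55.3 ± 3.81 in P2H2KO (mean ± SD, n = 4). For Gapdh alone, libraries 13 and 18 of P2H2WT were at 53.7 and 50.8, and libraries 14 and 16 at 60.5 and 57.4. With Gm13394 added, the same group read 73.2, 70.0, 66.8 and 70.1 in libraries 13, 14, 16 and 18, and P2H2KO read 59.7, 62.6, 59.8 and 57.1 in libraries 11, 12, 15 and 17. The SD of the sum was 2.63 in P2H2WT and 2.26 in P2H2KO, and on this scale every knockout library lay below every control in both lines. How many of all genes separate in this way per Aldoa count was not determined, and Aldoa was chosen by its values. Nothing is therefore read from this separation, and scaling to the glycolysis mean did not give it. The sum lay above the glycolysis mean by 1.84 to 1.89 (log2) in P2WT and 1.76 to 1.96 in P2KO, and by 1.94 to 2.13 in P2H2WT and 1.91 to 2.04 in P2H2KO, so the groups overlapped in both lines. In P2H2WT the SD on that scale was 0.088 for Gapdh alone and 0.081 for the sum. The order of the groups thus depended on the gene or list used for scaling.

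The glycolysis list left Gapdh out and was chosen from general knowledge, but with earlier results of these data known. Its genes had mostly higher levels in the knockout libraries, though few passed the test. In P2KO against P2WT, 3 of 21 were called higher and 0 lower, 19 of 21 had a log2 change above 0 and the median was 0.19, against 0.02 over all genes. In P2H2KO against P2H2WT, 3 were called higher and 0 lower, 18 of 21 were above 0 and the median was 0.40, against 0.00 over all genes. The 3 called were the same in both lines. Aldoc, an aldolase isoform, was higher by 1.52 (SE 0.11, adjusted p = 0.00104, edgeR quasi-likelihood test) and by 1.80 (SE 0.20, adjusted p = 0.0106). Pfkl, the liver-type phosphofructokinase, was higher by 0.75 (SE 0.061, adjusted p = 0.00198) and by 0.92 (SE 0.076, adjusted p = 0.00233). Tpi1 encodes the enzyme just before GAPDH in the pathway. It was higher by 0.70 (SE 0.072, edgeR adjusted p = 0.0105) and by 0.83 (SE 0.078, edgeR adjusted p = 0.00385). All 3 had every knockout library above every control in both lines. In the P2H2 line 0.901% of all 13435 genes tested had this separation, and for the P2 line that share was not counted. In the P2KO comparison the Tpi1 call was lost in 4 of the 8 fits that left out 1 library (P2KO 1, P2WT 3, 4 or 10). In the P2H2KO comparison the Aldoc call was lost without P2H2KO library 17 or P2H2WT library 13, 14 or 16.

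The log2 difference of Gapdh in the P2H2 line, 0.60, was that of Aldoa (0.60, SE 0.15) and near that of Eno1 (0.66, SE 0.14), while the 0.37 of the sum was that of Pkm (0.37, SE 0.17) and near those of Ldha (0.46, SE 0.10) and Pgk1 (0.48, SE 0.14). None of these 5 passed the edgeR threshold. DESeq2 called 7 glycolysis genes in this line, adding Slc2a1 (the glucose transporter GLUT1), Aldoa, Ldha and Eno1. For the contrast between the lines' effects 0 of 21 were called by either tool and 0 had an unadjusted p under 0.05. With libraries 11 and 17 of P2H2KO both left out, 1 glycolysis gene, Pfkl, was called in the P2H2 line.

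**Figure D4:**
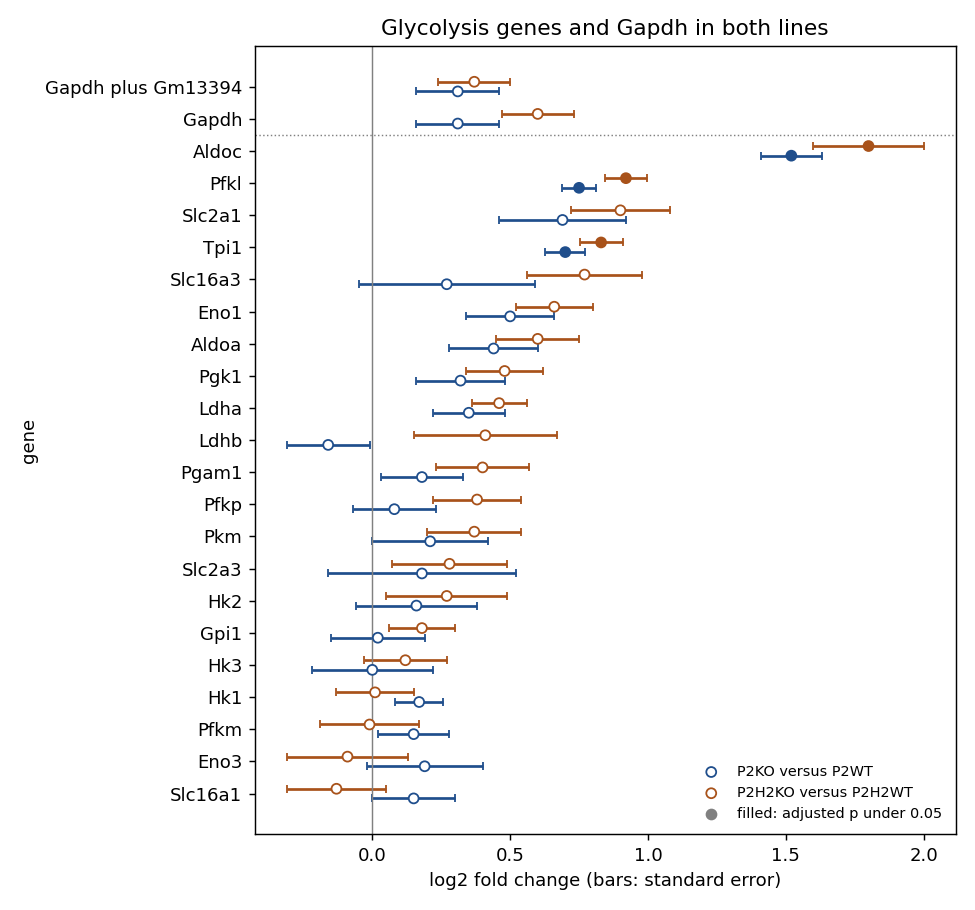
Log2 fold change (x axis, bars are standard errors) of 21 glycolysis genes and, above the dotted line, Gapdh and the sum with Gm13394, in P2KO against P2WT (blue) and P2H2KO against P2H2WT (brown). Filled points have an adjusted p under 0.05, which holds for Aldoc, Pfkl and Tpi1. The P2H2 value of Gapdh drops from 0.60 to 0.37 when Gm13394 is added.

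As a reference gene Gapdh was among the most variable of those compared. Its CPM had a coefficient of variation of 22.8% over the 16 libraries, and the sum had 22.1%. Of 18 commonly used reference genes, 17 varied less, with a median of 8.68%. Sdha, a subunit of succinate dehydrogenase, varied least (3.51%, 239 to 270 CPM) and Pgk1 most (23.7%). In the comparisons within the lines 0 of 18 reference genes were called by edgeR or by DESeq2, with 1 at an unadjusted p under 0.05 in each line.

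Promoter sequence is shown because Gapdh varied with glycolysis genes that hypoxia-inducible factors are known to bind. In the RefSeq window of GRCm38.p6 from 250 bases before to 50 bases after the Gapdh start, the core letters GCGTG were found 2 times and ACGTG once on either strand, with no overlap between matches. Of 32851 promoter windows of this length, 43.8% hold at least 1 of the 2. The 100 bases before the start, chr6:125165774-125165873 on the minus strand, hold both GCGTG matches, in capitals, the first as its reverse complement.
Gapdh promoter: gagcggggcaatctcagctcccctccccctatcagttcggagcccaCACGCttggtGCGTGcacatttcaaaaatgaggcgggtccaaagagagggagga

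A match describes the letters only, and no binding was measured. Pianp had 3 such windows, of which each held GCGTG once and 1 held ACGTG, and no window was matched to Gm13394.

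Other pseudogenes of Gapdh did not share the pattern of Gm13394. In the tables, 148 annotated pseudogenes other than Gm13394 summed to 612 to 1190 counts per library. Apart from Gm13394, 22 copies at least 99% identical to Gapdh over 900 bases or more held 0 to 30 counts each and 37 to 99 together. Gm10359 on chromosome 5 and Gm12671 on chromosome 4, identical to the whole coding sequence, held at most 2 counts in any library. Gm10293, with the highest counts among the near-identical copies, ranged from 8 to 30. The highest summed counts of near-identical copies, 99, were in P2H2KO libraries 15 and 17, of which 1 had 2882 Gm13394 counts and the other 4. The 157 genes in the tables that matched Gapdh include Gm13394 and some not annotated as pseudogenes, such as the protein-coding Peli2. Of these 157, 26 passed the filter in each line's comparison and 0 were called by edgeR or DESeq2. By edgeR, 2 had an unadjusted p under 0.05 in the P2 line (3.49% of all genes) and 7 in the P2H2 line (2.63%). Of the 26, 22 (84.6%) had a log2 change above 0 in the P2 line and 23 (88.5%) in the P2H2 line. Over all genes tested these shares were 57.8% and 50.5%. The medians were 0.34 and 0.44, against 0.02 and 0.00 over all genes.

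Around Gapdh on chromosome 6, few neighbours differed between groups. Of 66 annotated genes that start within 500000 bases of the Gapdh start, 36 were tested in the P2 line and 37 in the P2H2 line. In each line 1 was called higher and 0 lower, Tpi1 both times, and the medians were 0.00 and 0.01. The genes next to Gapdh with counts were Iffo1, Nop2 and Chd4 on the lower side and Ncapd2 and Mrpl51 on the upper side. Iffo1 overlaps the annotated end of Gapdh by 68 bases on the other strand and, if counting ignored strand, reads there could not be told apart. Its CPM was 13.1 ± 0.569, 12.7 ± 0.730, 12.4 ± 0.391 and 11.8 ± 0.467 in P2WT, P2KO, P2H2WT and P2H2KO (mean ± SD, n = 4). Between Pianp and Gapdh, Zfp384 lay at 55.1 to 69.0 CPM and Chd4 at 410.6 to 586.1 CPM over the 16 libraries, so the genes flanked by the pair did not split the libraries as Pianp did. Over the 8 P2H2 libraries, log2 CPM correlated with the Gm13394 share at r = 0.945 for Pianp and r = -0.691 for Gapdh. The median over the 36 other neighbours that passed the filter was 0.035. The extremes were Cdca3, a cell division gene, at r = -0.964 and Cd4 at r = 0.787.

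Cdca3 was lower where the share was higher in the P2H2 line. It held 3013 and 2399 counts in libraries 13 and 18 of P2H2WT, 3988 and 3642 in libraries 14 and 16, 3820 and 3582 in libraries 12 and 15 of P2H2KO, and 5030 and 4229 in libraries 11 and 17. The 3 levels of the share were thus also 3 separate ranges of Cdca3 counts.

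Among the 5 genes most like Gm13394 over the 16 libraries were St8sia1 (a sialyltransferase that makes ganglioside GD3, r = 0.963) and Pianp (r = 0.961). Both lie on chromosome 6, although the pseudogene is annotated on chromosome 2. Among the 5 genes most like Pianp were Gm13394 and again St8sia1. With 10 of 16 libraries at or near their lowest level, these r values mostly describe which libraries were high. St8sia1 held 54 and 57 counts in libraries 17 and 11 of P2H2KO, 325 to 621 in the 4 libraries at the middle share, and 953 and 1309 in libraries 13 and 18 of P2H2WT. St8sia1 and Pianp were therefore both higher at each higher level of the share. The labels name no substrain, and whether the libraries differ in it was not tested.

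**Figure D5:**
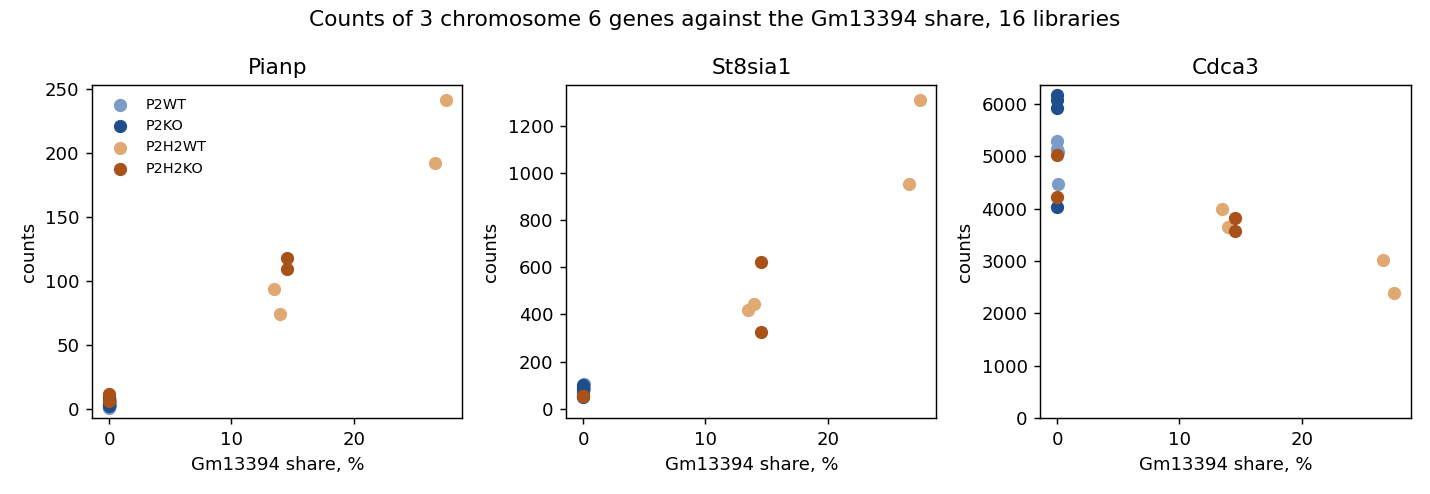
Counts (y axis) of Pianp, St8sia1 and Cdca3 against the Gm13394 share in percent (x axis) in the 16 libraries, coloured by group. Pianp and St8sia1 are higher and Cdca3 is lower in the P2H2 libraries with a larger share.

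The concentration on chromosome 6 went beyond the named genes, in a count added after these values had been seen. Of the 50 genes whose log2 CPM had the highest correlation with the Gm13394 share over the 8 P2H2 libraries, 15 (30%) were on chromosome 6, as were 16 (32%) of the 50 with the lowest. Chromosome 6 holds 825 of the 14079 genes compared (5.86%), and no other chromosome gave more than 4 of either 50. Their starts ran from 50573302 to 148354656. Chosen after their values were seen, Emp1 (epithelial membrane protein 1), Igkv6-32 (an immunoglobulin kappa variable segment) and Rasgef1a show the range. Emp1 held 62 and 83 counts in P2H2KO libraries 17 and 11 and 107 in P2H2WT library 14, against 847 to 1760 in the other 5. Igkv6-32 held 283 and 428 counts in libraries 13 and 18 and 27 to 95 in the other 6. Rasgef1a held 1 and 2 counts in libraries 13 and 18, 10 to 18 at the middle share, and 33 and 24 in libraries 11 and 17. These genes were ranked by the share itself, so the ranking is a description and has no test.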

How the data were processed

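RNA sequencing counts of 16 libraries were used, 4 in each of 4 groups taken from the labels. Raw counts were deposited in 2 tables, 1 per line, each with 49585 Ensembl identifiers and values that were not normalized. Per the submitters' processing notes HTSeq and mm10 were used. Aligner, read length, strand setting and the handling of reads that match several genes are not given in the sources used here, and they decide how reads are divided between Gapdh and Gm13394. Per the labels' protocols, total RNA and standard Illumina preparation were used. GENCODE M21 names matched 49326 identifiers, and the 259 others held 0.00714% of counts. All per-sample columns were used.

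The 3 genes, the lists and the tests were chosen with earlier results of these data known. Low counts were removed by filterByExpr (edgeR 4.0.16), and libraries were scaled by TMM and tested with the robust quasi-likelihood test (two-sided, Benjamini-Hochberg over all genes, threshold 0.05) in the 8 libraries of each line. The contrast of the lines' effects and that of the controls used all 16. CPM was computed here from the deposited counts, and log2 CPM with a prior count of 2. The sum of Gapdh and Gm13394 was fitted as 1 feature. The procedure was tested on simulated data. DESeq2 1.42.0, the merged feature, the m or f suffix as a covariate, RLE factors, upper-quartile factors, a filter of 10 counts per library, the absence of a filter and the omission of each library were tried as alternatives. Added after seeing the data were leaving out P2H2KO libraries 11 and 17 together and the chromosome count. Sequences were compared with blastn 2.17.0 on GENCODE M21 transcripts (GRCm38, the same assembly as mm10), and promoters came from RefSeq. Named genes were the 5 most like each of the 3 genes and the sum by r (some of those most like Gm13394 and Pianp are not reported here), the called or most changed glycolysis genes (up to 6), the nearest annotated genes and those between Gapdh and Pianp (those with counts are given), near-identical pseudogenes, and the reference genes of lowest and highest variation.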

Additional observations from a re-analysis of the deposited data

Results flagged for a closer look

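In the 20 groups of 4 values tested for a library far from the others, 1 stood apart. Gm13394 was at 0 CPM in P2WT library 4, while libraries 3, 7 and 10 of that group each held 4 counts. Chance flags about 1 in 20 such groups, and 0 against 4 counts is at the limit of what counting can show.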

How the results depend on the processing

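Leaving out 1 library gave 4 to 6 called genes between P2KO and P2WT, and 6 to 9 between P2H2KO and P2H2WT, where the lowest was without P2H2WT library 13. Between P2WT and P2H2WT the count was 0 to 182, with 0 without P2WT library 3, 4 or 7 or P2H2WT library 13, 1 without P2WT library 10 or P2H2WT library 16, and 182 without P2KO library 9. In the same comparison no filter gave 9 genes, at least 10 counts in every library gave 0, DESeq2 291 and the suffix covariate 124. Gm13394 was called there in 9 of 21 alternative fits that included it, and Pianp in 15 of 22. The main fit called 0.227% of all genes there. Both genes were chosen by these values and failed the filter in the P2 line alone, so nothing is read from these calls. DESeq2 called 23 genes for P2KO, 42 for P2H2KO and 7 glycolysis genes for P2H2KO. The 1 called chromosome 6 neighbour, Tpi1, was lost in the P2 line with the suffix covariate (0), and leaving out 1 library gave 0 to 1. Without P2H2KO libraries 11 and 17 together, 4 genes, 1 glycolysis gene and 0 neighbours were called in the P2H2 line, where fewer samples were tested. The cause of the other changes was not tested.

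No reported log2 difference of Gapdh, Gm13394, the sum or Pianp moved by more than the spread between libraries under any alternative that could be fitted. For Gm13394 and Pianp in the P2H2 line this says little. Their spread there includes P2H2KO libraries both with many counts and with almost none. Between P2H2KO and P2H2WT their differences ranged from -1.86 to -0.11 for Gm13394 and from -1.83 to -0.42 for Pianp. Gapdh ranged from 0.51 to 0.68 for P2H2KO and from 0.17 to 0.39 for P2KO, and leaving out 1 library put the sum at 0.29 to 0.45 in the P2H2 line. With 20 or 100 genes, or with genes of at least 1 CPM, the share of genes on chromosome 6 stayed inside the counting interval of the value for 50. Gm13394 and Pianp had no value with at least 10 counts in every library and failed the filter in the P2 line. Their values there without a filter, and for the contrast of the lines' effects, are not given because they rest on a few counts per library. No paired analysis was possible because no replicate number is shared between groups. Depth limits Gm13394 and Pianp in the P2 line, where a few counts cannot be told from 0.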
